A study of Mus musculus with 12 samples.

Results

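The genes described here are 9 genes of hepcidin and iron handling, followed through livers that overexpress YAP or MYC. They were taken by symbol from the 48576 genes listed per library: Hamp and Hamp2 (hepcidin), Bmp6, Hfe and Tfr2 (signals and sensors that act on hepcidin), Tfrc (uptake of transferrin-bound iron), Slc40a1 (export) and Fth1 and Ftl1 (storage). All 9 passed the filter on low counts and were among the 17964 genes tested.

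RNA of whole mouse liver was sequenced in 12 libraries from 5 groups. In 2 of the groups, animals carrying Col-TRE-YAPS127A and Rosa26-LSL-rtTA received AAV-TBG-Cre, a virus that expresses Cre from a hepatocyte promoter, at 8 to 10 weeks of age, and doxycycline then switched on the constitutively active YAP mutant YAPS127A for 2 weeks (n = 2) or 4 weeks (n = 3). Their controls (YAP controls, n = 2) had the same genotype without induction of YAPS127A, and the labels do not say whether they received the virus or doxycycline. In MYC livers (LAP-tTA with TRE-MYC, n = 3), doxycycline was withdrawn from pregnant mothers near embryonic day 8 and the offspring's livers were taken 4 weeks after birth. MYC controls (n = 2) carried LAP-tTA alone, without TRE-MYC, on the same doxycycline schedule. The labels name hepatocytes as the cell type, but the extraction protocol describes total liver RNA, so every level below is a level in whole tissue.

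Hepcidin is a peptide hormone made by hepatocytes that binds the iron exporter ferroportin, the product of Slc40a1, and causes its loss from the cell surface, which lowers the release of iron from macrophages, enterocytes and hepatocytes. Hepatocytes raise hepcidin transcription when BMP6, a ligand made largely by liver sinusoidal endothelial cells, signals through BMP receptors, hemojuvelin and SMAD proteins, with HFE and TFR2 adding information on transferrin-bound iron. Inflammation raises it through IL-6 and STAT3, and erythropoietic demand lowers it. Iron-regulatory proteins act on another layer: they bind stem-loops called iron-responsive elements, stabilising Tfrc mRNA and blocking translation of ferritin and ferroportin mRNA when iron is low.

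The regulatory letters of the mouse hepcidin genes are shown because Hamp and Hamp2 differed in their pattern across the groups. Both lie on the minus strand of chromosome 7 in GRCm38, Hamp at chr7:30942368-30944032 (ENSMUSG00000050440.8) and Hamp2 at chr7:30922372-30924681 (ENSMUSG00000056978.8). The 250 bases before the RefSeq start (GRCm38.p6) are at chr7:30944030-30944279 for Hamp and chr7:30924182-30924431 for Hamp2. Capitals mark GGCGCC, the core of the BMP response element known from hepcidin promoters, and TTCNNNGAA, the general form of a STAT site.
Hamp upstream: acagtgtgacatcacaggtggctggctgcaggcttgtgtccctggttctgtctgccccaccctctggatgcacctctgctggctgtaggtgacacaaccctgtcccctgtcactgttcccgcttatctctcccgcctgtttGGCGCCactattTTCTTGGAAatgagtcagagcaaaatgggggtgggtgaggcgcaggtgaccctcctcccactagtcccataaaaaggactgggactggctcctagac
Hamp2 upstream: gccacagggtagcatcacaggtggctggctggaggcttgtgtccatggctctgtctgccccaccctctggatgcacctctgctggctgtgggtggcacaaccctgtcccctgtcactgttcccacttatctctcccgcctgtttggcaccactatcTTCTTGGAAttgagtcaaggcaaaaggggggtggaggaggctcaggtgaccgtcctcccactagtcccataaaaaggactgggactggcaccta
The windows were identical at 227 of 253 aligned positions (89.7%). The Hamp window held GGCGCC, with its first base 109 bases before the start, and TTCNNNGAA at 97 bases before it. The Hamp2 window held TTCNNNGAA at 94 bases before its start and had no GGCGCC on either strand: counted from 1 at the 5′ end of the Hamp window, the aligned letters carry G145A, which gives GGCACC. Of 32851 such windows in the RefSeq table, 9.59% held GGCGCC and 7.02% held TTCNNNGAA. For the members, 8 of 9 had windows in that table. GGCGCC was also in 1 of the 2 Tfrc windows, 89 bases before the start. CACGTG, an E-box of the kind MYC binds, was found in the Bmp6 window alone, 127 bases before the start (6.02% of all windows hold it). GGAATG, the letters bound by the TEAD partners of YAP, was found in 1 of the 3 Tfr2 windows, at 2 places (12.6% of all windows hold it). Both strands were searched, and a match or its absence describes these letters only.

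Iron-responsive elements were searched because the transcripts that carry them are the ones iron-regulatory proteins act on after transcription. For each member the longest protein-coding transcript of GENCODE vM21 (GRCm38) was searched. The rule asked for the loop CAGTGN, its last base not G, and a cytosine set off from the loop by a stem of 5 pairs, G-T pairs allowed. The 7 sites found are listed as 29 bases each, with the loop in capitals.
Tfrc 3′ UTR, chr16:32631219-32631247, plus strand: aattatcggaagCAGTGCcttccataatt
Tfrc 3′ UTR, chr16:32631598-32631626, plus strand: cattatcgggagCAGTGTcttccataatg
Tfrc 3′ UTR, chr16:32631663-32631691, plus strand: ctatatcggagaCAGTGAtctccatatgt
Tfrc 3′ UTR, chr16:32631710-32631738, plus strand: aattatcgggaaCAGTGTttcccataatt
Slc40a1 5′ UTR, chr1:45925465-45925493, minus strand: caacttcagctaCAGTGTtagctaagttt
Fth1 5′ UTR, chr19:9982732-9982760, plus strand: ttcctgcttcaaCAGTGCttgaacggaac
Ftl1 5′ UTR, chr7:45459779-45459807, minus strand: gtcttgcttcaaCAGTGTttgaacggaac
Tfrc was the member with sites in its 3′ UTR, and it had 4. Slc40a1, Fth1 and Ftl1 had 1 each in the 5′ UTR. Of 21877 protein-coding genes, 222 (1.01%) had such a site in any of their protein-coding transcripts, a wider search than the single transcript per member. RNA levels in whole liver cannot separate the effect of a 3′ UTR element on stability from transcription or cell content. Nor do they show the block of translation exerted through a 5′ UTR element.

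Library totals lay between 12511170 and 17690798 counts. Levels below are CPM, counts relative to the library total scaled by TMM, a factor that holds the typical gene level between libraries, and adjusted p-values are from edgeR's quasi-likelihood test with Benjamini-Hochberg adjustment over all tested genes, called under 0.05. The labels do not say whether the libraries of a group came from separate animals, so p-values measure only the spread between these libraries, which are called livers here. Yap1 read 80.1 and 87.4 CPM in 2-week YAP livers, 65.6 to 85.8 CPM in 4-week YAP livers and 81.2 and 86.5 CPM in YAP controls, and Myc read 22.2 to 31.4 CPM in MYC livers and 6.71 and 15.5 CPM in MYC controls. Whether transgene reads are counted under the mouse symbols is not given in the sources used here, so these levels do not check the labels. Xist and Ddx3y levels were of the female kind in 2-week YAP liver 2 and all 4-week YAP livers and of the male kind in the other 8 livers. Sex and 4 weeks of YAP induction therefore cannot be told apart against the YAP controls, both male, while 2-week YAP liver 1 was male like them. Skeletal muscle markers summed to 474 and 528 CPM in 2-week YAP livers, 3.11 to 20.4 CPM in 4-week YAP livers and 0.955 and 1.16 CPM in YAP controls. TMM factors ran from 0.742 in a YAP control to 1.35 in a 4-week YAP liver. Mitochondrial genes took 10.2% and 13.9% of counts in 2-week YAP livers and 7.67% to 11.7% in 4-week YAP livers, against 19.3% and 19.6% in YAP controls, and the part of this in the YAP results was not tested. Under scaling by total counts, log2 fold changes of the median gene were higher by 0.54 for 2-week YAP, 0.73 for 4-week YAP and 0.41 for MYC, and directions below are relative to TMM unless stated. Of the genes called, 54.4% were higher at 2 weeks, 53.6% at 4 weeks and 53.3% in MYC livers by TMM, against 84.2%, 89.8% and 81.5% by total counts.

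By group mean, hepcidin was the most abundant member per length in every group. Hamp averaged 8650 ± 2360 CPM per kilobase of transcript in 2-week YAP livers, 5440 ± 3660 in 4-week YAP livers and 1880 ± 124 in YAP controls (SD, n = 2, 3 and 2). It averaged 1190 ± 1290 CPM per kilobase in MYC livers, where the spread exceeded the mean, and 1460 ± 212 in MYC controls (SD, n = 3 and 2). The ferritin subunits Fth1 and Ftl1 stood next in all 5 groups. Fth1 averaged 419 ± 37.0 and 425 ± 16.7 CPM per kilobase after 2 and 4 weeks of YAP, against 695 ± 56.5 in YAP controls. At the other end, Tfrc ranked last in 2-week and 4-week YAP livers at 4.34 and 5.93 CPM per kilobase, and Bmp6 ranked last in YAP controls at 0.562, in MYC livers at 0.445 and in MYC controls at 0.664.

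**Figure D1:**
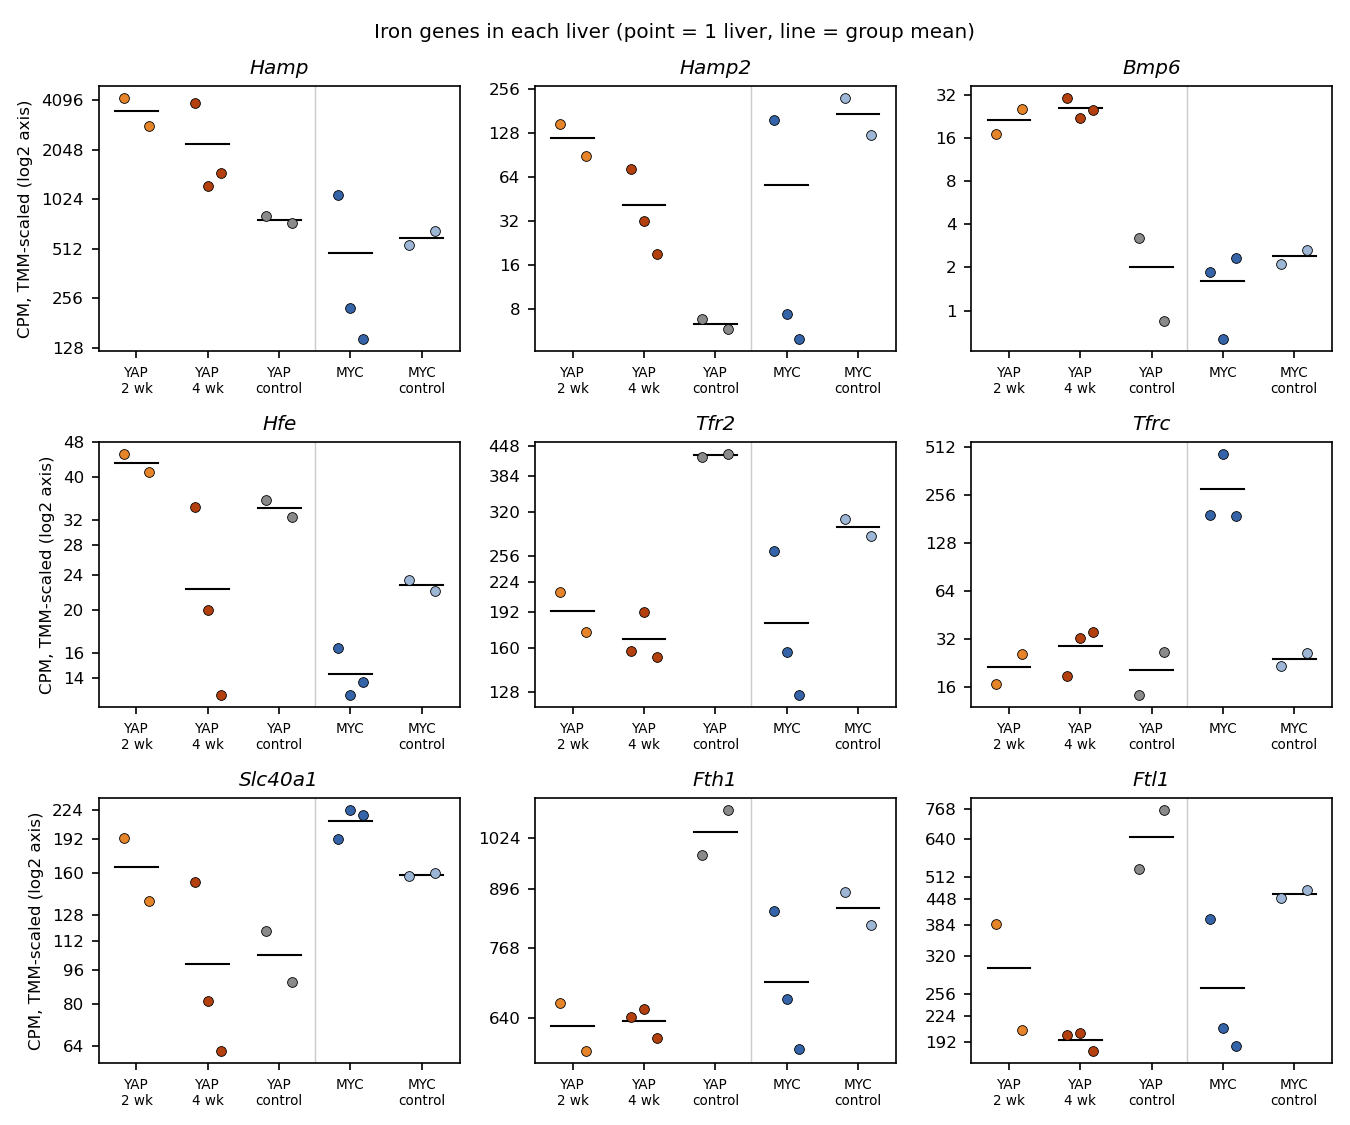
Level of each of the 9 iron genes in every liver, in TMM-scaled CPM on a log2 axis; points are livers, lines are group means, and the grey line parts the YAP from the MYC model. Bmp6 was at 17.1 to 30.4 CPM in induced YAP livers and at most 3.19 CPM elsewhere, Tfrc was at 187 to 460 CPM in MYC livers and at most 35.5 CPM elsewhere, and Hamp and Hamp2 in MYC liver 1 lay far above MYC livers 2 and 3.

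Of the 9 members, 1 rose and 3 fell at 2 weeks of YAP, where 27.8% of all tested genes were called (15.1% higher, 12.7% lower). The same count of 1 and 3 was reached at 4 weeks, where 33.8% of all genes were called (18.1% higher, 15.7% lower). Over 9 genes, 4 calls differ from these shares by 1 or 2 genes. By total-count scaling 5 members rose and 0 fell at 2 weeks (Hamp, Hamp2, Bmp6, Hfe and Slc40a1), and 2 rose (Hamp and Bmp6) and 2 fell (Tfr2 and Ftl1) at 4 weeks. Over all 17964 genes in that setting, 5228 rose and 979 fell at 2 weeks, and 7863 rose and 897 fell at 4 weeks. In MYC livers 1 member rose, where 18.3% of all genes were called (9.76% higher, 8.56% lower). The results below are for single members, and the count of calls does not set the list apart from other genes. Counts for the other lists below are to be read beside the same shares of all genes.

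Hamp, the main hepcidin gene, had higher levels in all 5 induced YAP livers than in both YAP controls, without passing the test. It read 4230 and 2870 CPM in 2-week YAP livers, against 806 and 734 CPM in YAP controls. In 4-week YAP livers it read 3960, 1240 and 1490 CPM. No induced liver overlapped the controls, and liver 1 of the 4-week group lay between the 2-week livers, far above livers 2 and 3 of its own group. The log2 fold change was 2.20 ± 0.89 at 2 weeks (SE, adjusted p = 0.0933) and 1.53 ± 0.82 at 4 weeks (adjusted p = 0.177). Scaling by total counts took both past the threshold, with log2 fold changes of 2.71 (adjusted p = 0.031) and 2.22 (adjusted p = 0.039). With that setting included, Hamp passed in 2 of 12 other settings tried at 2 weeks and 1 of 13 at 4 weeks. The highest Hamp level of the 12 livers, 4230 CPM, was in 2-week YAP liver 1, which was male like the YAP controls, while the other induced livers were female. The part of sex in the Hamp levels was not tested.

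Hamp2, the second mouse hepcidin gene, was likewise higher in every induced YAP liver without passing the test. It read 149 and 89.8 CPM in 2-week YAP livers, against 6.76 and 5.83 CPM in YAP controls. After 4 weeks of YAP it read 73.1, 32.0 and 18.9 CPM. All 5 induced livers were above both controls, yet the log2 fold changes of 4.24 ± 1.58 at 2 weeks (SE, adjusted p = 0.0748) and 2.71 ± 1.44 at 4 weeks (adjusted p = 0.176) did not pass. At 2 weeks the change passed in 5 of 12 other settings tried, total-count scaling among them (log2 fold change 4.74, adjusted p = 0.0466). At 4 weeks it passed in 1 of 13. MYC controls stood at the top of the order for Hamp2, at 223 and 124 CPM, overlapping 2-week YAP livers, while YAP controls had the lowest mean and lay within the wide range of MYC livers. Of the reads assigned to either hepcidin gene, Hamp2 took 3.41% and 3.04% in 2-week YAP livers, 1.81%, 2.51% and 1.25% in 4-week YAP livers and 0.832% and 0.788% in YAP controls. It took 12.6%, 3.22% and 3.31% in MYC livers and 29.4% and 15.8% in MYC controls. The main transcripts of the pair were identical at 88.8% of aligned bases, and 16.6% of the 50-base stretches of Hamp and 26.8% of those of Hamp2 also occurred in another gene, so the division of reads between them is uncertain.

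In MYC livers the hepcidin genes split by liver. Hamp read 1090, 222 and 144 CPM in MYC livers, against 537 and 660 CPM in MYC controls. Hamp2 read 158, 7.36 and 4.93 CPM in MYC livers, against 223 and 124 CPM in MYC controls. MYC liver 1 was above both controls for Hamp and between them for Hamp2, whereas livers 2 and 3 were below both for each gene. Neither difference passed: the log2 fold change was -0.30 ± 0.78 for Hamp (SE, adjusted p = 0.835) and -1.61 ± 1.21 for Hamp2 (adjusted p = 0.404). Without MYC liver 1, Hamp fell by 1.71 (adjusted p = 0.0355) and Hamp2 fell by 4.82 (adjusted p = 0.00164) on the log2 scale. Without MYC liver 2 or 3 the sign for Hamp turned, to 0.05 and 0.14.

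**Figure D2:**
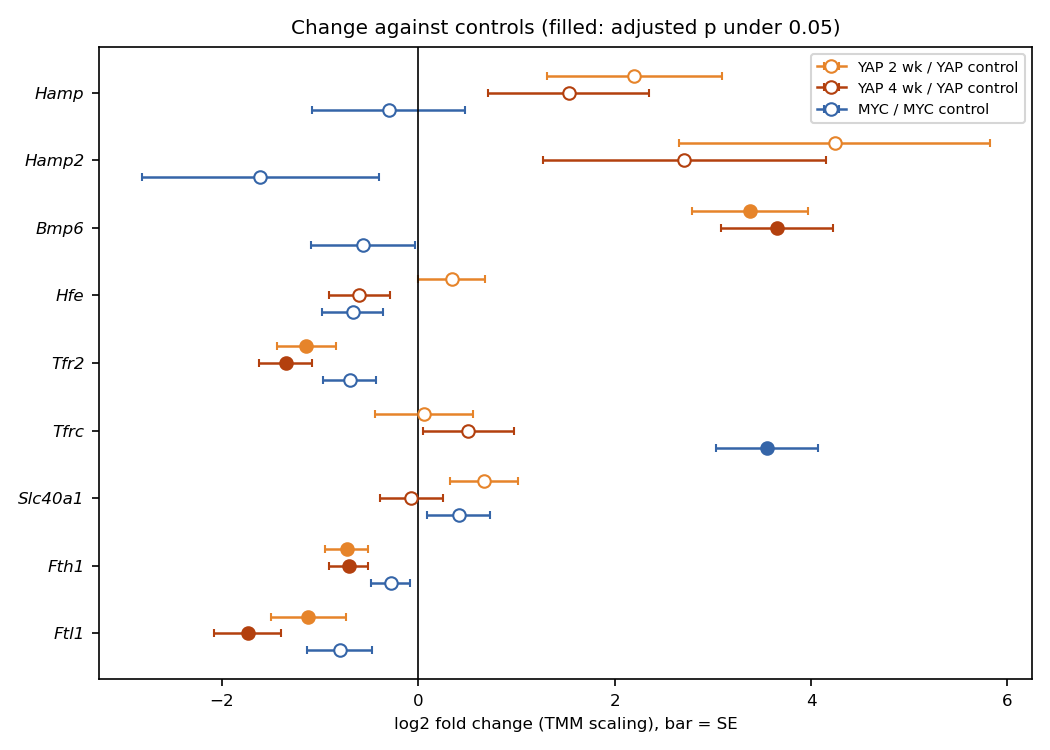
Log2 fold change of each iron gene against its own controls for 2-week YAP, 4-week YAP and MYC livers, with SE bars; filled points passed an adjusted p of 0.05. Bmp6 (higher), Tfr2, Fth1 and Ftl1 (lower) passed at both YAP times and Tfrc (higher) passed in MYC livers, while by total-count scaling Fth1 at 4 weeks stood at 0.03.

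Bmp6, the ligand that tells hepatocytes of liver iron stores, rose at both YAP times. It read 17.1 and 25.6 CPM in 2-week YAP livers and 30.4, 22 and 24.9 CPM in 4-week YAP livers, against 3.19 and 0.849 CPM in YAP controls. The groups did not overlap, with 241 to 479 reads per induced liver and 33 and 8 reads in the controls. The log2 fold change was 3.38 ± 0.59 at 2 weeks (SE, adjusted p = 0.00207) and 3.65 ± 0.57 at 4 weeks (adjusted p = 0.000962), and it passed in each of the 12 and 13 other settings tried. In MYC livers Bmp6 read 1.85, 0.631 and 2.32 CPM, against 2.12 and 2.65 CPM in MYC controls. Those groups overlapped (log2 fold change -0.56 ± 0.53, adjusted p = 0.511). Both YAP comparisons share the YAP controls. Markers of sinusoidal endothelium, a list that holds Bmp6 itself, summed to 853 and 1020 CPM in 2-week YAP livers, 385 to 851 CPM in 4-week YAP livers and 647 and 694 CPM in YAP controls. In that list 4 of 14 genes rose at 2 weeks, and at 4 weeks 1 rose and 1 fell, with a median log2 fold change of 0.19 and -0.46 beside 0.10 and 0.18 for all genes. By total-count scaling 6 rose at 2 weeks, and at 4 weeks 5 rose and 0 fell. In whole tissue, more cells of a type and more RNA per cell cannot be told apart.

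Some of the genes that the BMP-SMAD pathway induces rose in YAP livers. Of 8 such genes 3 rose at each time and the other 5 did not pass, with a median log2 fold change of 0.99 at 2 weeks and 0.97 at 4 weeks, against 0.10 and 0.18 for all genes. By total-count scaling 6 and 7 of them rose. Markers of other cells moved in the same livers: cholangiocyte markers summed to 646 and 1300 CPM at 2 weeks and 505, 3220 and 3310 CPM at 4 weeks, against 160 and 182 CPM in YAP controls, and 3 and 5 of 9 rose. Monocyte and macrophage markers summed to 1240 and 1780 CPM at 2 weeks and 838, 3290 and 3230 CPM at 4 weeks, against 281 and 297 CPM in YAP controls, and 11 and 10 of 12 rose. Ly6c2 was the one marker of the second list at 0 in both YAP controls, and the part of these cells in the target genes' levels was not tested. Id1, a direct SMAD target, read 78.7 and 52.5 CPM in 2-week YAP livers and 73.9, 26.8 and 36.0 CPM in 4-week YAP livers, against 4.54 and 2.44 CPM in YAP controls. It rose by 4.22 ± 0.64 (SE, adjusted p = 0.00142) and 3.70 ± 0.61 (adjusted p = 0.00174) on the log2 scale. Bambi, a decoy receptor of the pathway, rose by 0.97 ± 0.26 at 2 weeks (adjusted p = 0.0187) and 1.59 ± 0.25 at 4 weeks (adjusted p = 0.000907). Smad7, an inhibitory SMAD that also limits hepcidin, passed at 2 weeks (1.01 ± 0.33, adjusted p = 0.0416) and not at 4 weeks (0.83 ± 0.31, adjusted p = 0.0557), and Smad6 passed at 4 weeks alone (0.92 ± 0.26, adjusted p = 0.019). In MYC livers Bambi and Id2 fell and the other 6 did not pass, with a median of -0.62 against 0.02 for all genes. By total-count scaling none of the 8 was called in MYC livers.

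**Figure D3:**
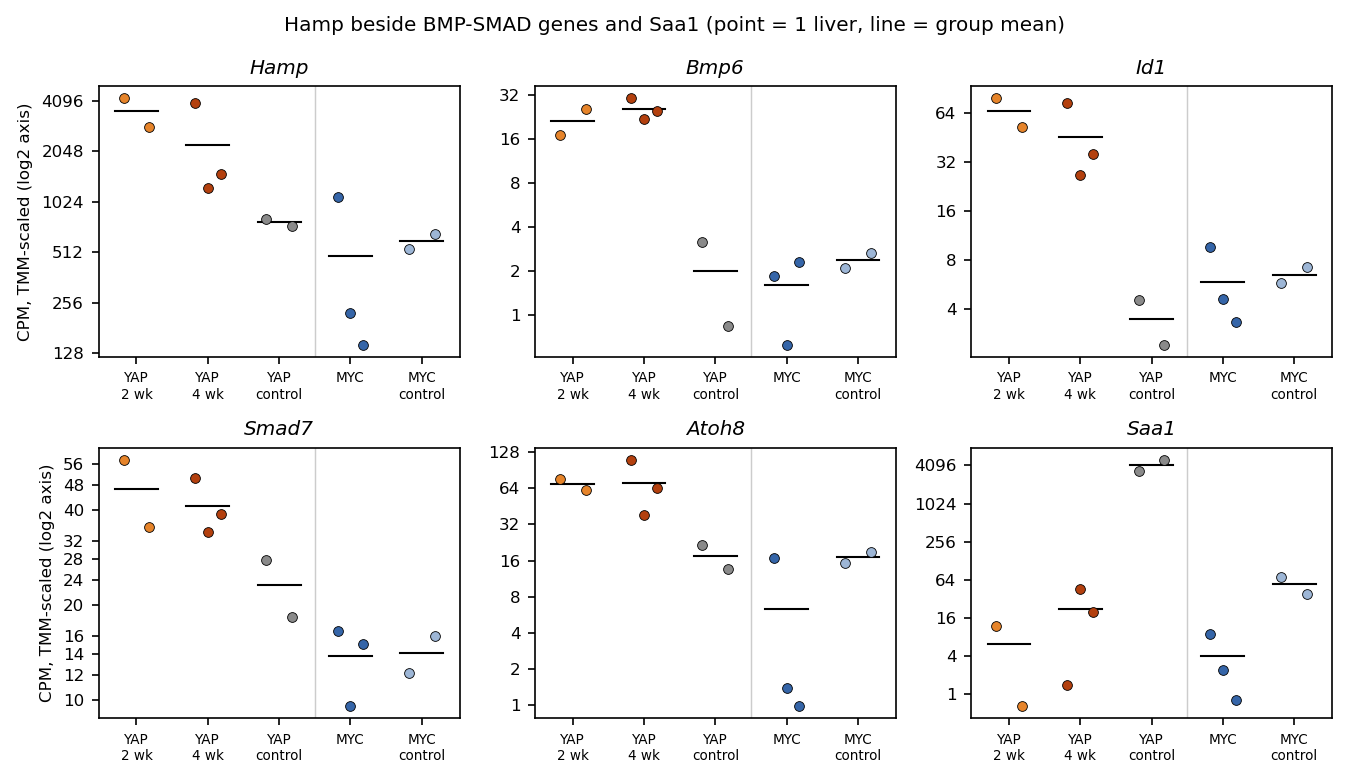
Hamp beside Bmp6, the BMP-SMAD target genes Id1, Smad7 and Atoh8, and the acute-phase gene Saa1, in TMM-scaled CPM on a log2 axis; points are livers and lines are group means. Id1 was at 26.8 to 78.7 CPM in induced YAP livers and at 2.44 to 4.54 CPM in YAP controls, and Saa1 ran the other way, at 0.658 to 46.0 CPM against 3390 and 5020 CPM.

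Upstream components of the pathway changed in both directions. Of 14 ligands, receptors, co-receptors and modifiers, 3 rose and 2 fell at 2 weeks, and 3 rose and 3 fell at 4 weeks, with medians of 0.02 and 0.00. Over all genes, 27.8% and 33.8% were called in either direction at these times. Bmp4, another BMP ligand, read 32.8 and 52.7 CPM in 2-week YAP livers and 60.7, 28.6 and 32.3 CPM in 4-week YAP livers, against 6.57 and 5.2 CPM in YAP controls. It rose at both times (2.86 ± 0.69 and 2.78 ± 0.66, adjusted p = 0.0133 and 0.0104). Neo1, neogenin, which binds hemojuvelin, and Fkbp1a, which holds type I BMP receptors inactive, rose at both times too. Hemojuvelin itself, listed as Hfe2, read 44.2 and 29.4 CPM at 2 weeks and 45.4, 27.0 and 23 CPM at 4 weeks, against 83.2 and 85.2 CPM in YAP controls. It fell by 1.19 (adjusted p = 0.0457) and 1.41 (adjusted p = 0.0121) on the log2 scale. Furin, a protease that can cleave hemojuvelin, fell with it. By total-count scaling 6 and 8 of the 14 rose and the falls were not called. In MYC livers 4 of the 14 fell, Bmp4, Bmpr2, Neo1 and Tmprss6, with a median of -0.39 (2 by total-count scaling). Tmprss6, the protease that removes hemojuvelin and so restrains hepcidin, read 215, 137 and 158 CPM in MYC livers, against 366 CPM in each MYC control (log2 fold change -1.10 ± 0.30, adjusted p = 0.0276).

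Several acute-phase genes, the usual companions of hepcidin in inflammation, fell in YAP livers. Of 17 IL-6, STAT3 and acute-phase genes tested, 9 fell at 2 weeks, and at 4 weeks 9 fell and Jak2 rose, with medians of -1.25 and -1.29. By total-count scaling 5 fell and 3 rose at each time. Saa1, serum amyloid A, read 12 and 0.658 CPM in 2-week YAP livers and 1.40, 46.0 and 20.1 CPM in 4-week YAP livers, against 3390 and 5020 CPM in YAP controls. Its log2 fold change was -9.38 ± 2.07 (SE, adjusted p = 0.0102) and -7.55 ± 1.59 (adjusted p = 0.00688). The YAP controls were the highest of all 5 groups for Saa1, and MYC controls read 71.8 and 38.0 CPM. In MYC livers Lcn2, lipocalin 2, rose and Fgb, fibrinogen beta, fell (not called by total-count scaling, -0.65, adjusted p = 0.058), while Saa1, at 9.05, 2.45 and 0.813 CPM, did not pass (adjusted p = 0.0964).

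Hfe, which links transferrin receptors to the BMP receptor complex, did not pass in any comparison on the TMM scale with all livers. It read 45.1 and 41.1 CPM in 2-week YAP livers and 34.2, 20 and 12.8 CPM in 4-week YAP livers, against 35.5 and 32.5 CPM in YAP controls. The 2-week livers were above both controls, and the 4-week livers reached from inside the control range down to well below it. The log2 fold change was 0.34 ± 0.34 at 2 weeks (SE, adjusted p = 0.483) and -0.60 ± 0.31 at 4 weeks (adjusted p = 0.151). Without 4-week YAP liver 1 Hfe fell by 1.05 at 4 weeks (adjusted p = 0.00403), and by total-count scaling Hfe rose at 2 weeks (0.87, adjusted p = 0.0356) and the 4-week sign turned to 0.09. MYC livers read 16.4, 12.8 and 13.7 CPM, below both MYC controls at 23.4 and 22.1 CPM (-0.67 ± 0.31, adjusted p = 0.159).

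Tfr2, a hepatocyte sensor of diferric transferrin, was highest in YAP controls and fell under YAP. It read 213 and 174 CPM in 2-week YAP livers and 158, 192 and 153 CPM in 4-week YAP livers, against 423 and 429 CPM in YAP controls. Every induced liver was below both controls by a wide margin. The log2 fold change was -1.14 ± 0.30 at 2 weeks (SE, adjusted p = 0.0159) and -1.35 ± 0.27 at 4 weeks (adjusted p = 0.00317). The 2-week call was lost by total-count scaling (-0.62, adjusted p = 0.0638), without either YAP control (adjusted p = 0.0645 and 0.0661) and without 2-week YAP liver 2 (adjusted p = 0.112), whereas the 4-week call passed in all 13 other settings tried, with total-count scaling giving -0.61. MYC livers read 262, 157 and 126 CPM, below MYC controls at 308 and 283 CPM, and did not pass (-0.70 ± 0.27, adjusted p = 0.0877). Without MYC liver 1, Tfr2 fell by 1.07 (adjusted p = 0.00358).

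Hepatocyte markers were lower in several of the same livers. They summed to 101000 and 80100 CPM in 2-week YAP livers, 45900 to 80600 CPM in 4-week YAP livers and 101000 and 119000 CPM in YAP controls. They summed to 72400, 54100 and 38100 CPM in MYC livers and 141000 and 135000 CPM in MYC controls, MYC liver 1 again standing nearest to its controls. Of 14 markers, none of them at 0 in any group, 5 fell at 2 weeks, 8 at 4 weeks and 6 in MYC livers, and the rest did not pass (median log2 fold changes -0.86, -1.24 and -1.08). By total-count scaling 3, 4 and 3 fell and 2, 1 and 0 rose. The part of hepatocyte content in the levels of Hamp, Hfe and Tfr2 was not tested.

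Tfrc, transferrin receptor 1, through which erythroid precursors and dividing cells take up iron, was the member that rose in MYC livers. It read 191, 460 and 187 CPM in MYC livers, against 21.6 and 26.1 CPM in MYC controls. All 3 MYC livers stood above every other library of the series, of which the highest read 35.5 CPM. The rise was 3.55 ± 0.52 on the log2 scale (SE, adjusted p = 0.00219), an 11.7-fold difference, and it passed in all 13 other settings tried, which ranged between 2.99 and 3.98. In YAP livers Tfrc read 16.7 and 25.7 CPM at 2 weeks and 18.8, 32.6 and 35.5 CPM at 4 weeks, against 14.2 and 26.6 CPM in YAP controls. Those groups overlapped, with log2 fold changes of 0.06 ± 0.50 (adjusted p = 0.949) and 0.51 ± 0.46 (adjusted p = 0.422). In the order of Tfrc levels the other 4 groups overlapped, each with its neighbour.

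Erythroid genes were high in the same livers. Of 21 erythroid markers 16 rose in MYC livers and the other 5, Alas2 and the 4 globin genes, did not pass, giving a median change of 7.04 (log2), or 6.19 with the 6 genes that had no count in MYC controls put at a floor of 3 counts per library. Without MYC liver 1, 18 of the 21 rose, and by total-count scaling 16 rose. The list summed to 741, 3790 and 1830 CPM in MYC livers, against 107 and 138 CPM in MYC controls. Gata1, a transcription factor of erythroid precursors, read 10.7, 29.7 and 14.5 CPM in MYC livers and had no count in either MYC control (adjusted p = 0.000706). Slc4a1, the band 3 anion exchanger of red cells, read 128, 833 and 414 CPM in MYC livers, against 4.6 and 6.86 CPM in MYC controls (6.32 ± 1.52, adjusted p = 0.0213). Hbb-bs, an adult beta globin, read 42.4, 266 and 149 CPM in MYC livers and 29.3 and 39.5 CPM in MYC controls (2.14 ± 0.82, adjusted p = 0.103), and its near-identical copy Hbb-bt makes that level uncertain.

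**Figure D4:**
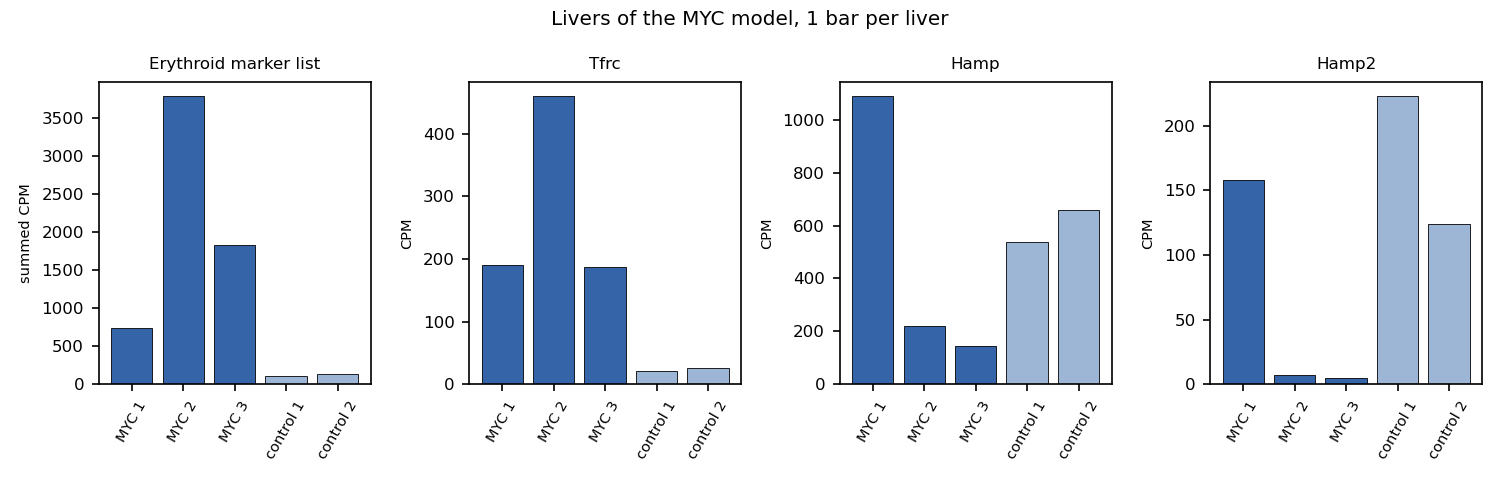
Summed CPM of the erythroid marker list and CPM of Tfrc, Hamp and Hamp2 in each liver of the MYC model; bars are livers. Among the 3 MYC livers, liver 2 had the highest erythroid sum (3790 CPM) and the highest Tfrc (460 CPM). Liver 1 had the lowest erythroid sum of the 3 (741 CPM) and their highest Hamp (1090 CPM) and Hamp2 (158 CPM).

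Within the 3 MYC livers, the orders of these values can be read side by side. MYC liver 1 had the lowest erythroid sum, the highest Hamp, Hamp2 and Tfr2, and Tfrc at 191 CPM. MYC liver 2 had the highest erythroid sum and the highest Tfrc. MYC liver 3, with an erythroid sum of 1830 CPM, had Tfrc at 187 CPM, close to liver 1. In YAP livers the erythroid list summed to 37.5 and 109 CPM at 2 weeks and 96.1 to 109 CPM at 4 weeks, against 78.6 and 97.9 CPM in YAP controls, with 1 gene up and 1 down at 2 weeks and 2 up and 1 down at 4 weeks. The part of erythroid cells in the Tfrc level of MYC livers was not tested.

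Of the listed signals between erythropoiesis and iron, 6 genes were tested, each singly. Kitl, stem cell factor, rose in all 3 comparisons, by 2.18 ± 0.41 at 2 weeks, 2.26 ± 0.39 at 4 weeks and 3.85 ± 0.43 in MYC livers (SE, adjusted p = 0.003, 0.00158 and 0.000477). Epor, the erythropoietin receptor, read 7.44, 20.8 and 8.82 CPM in MYC livers, against 0.177 and 1.01 CPM in MYC controls, and rose by 4.32 ± 0.81 (adjusted p = 0.0054). Epas1, a hypoxia-inducible factor, fell in MYC livers, at 165, 41.4 and 46.5 CPM against 303 and 290 CPM in MYC controls (-1.81 ± 0.50, adjusted p = 0.0323), and Hif1a fell at 4 weeks of YAP (-0.59 ± 0.15, adjusted p = 0.0127) but stood at 0.14 by total-count scaling. Erythroferrone, the erythroid hormone that restrains hepcidin, is listed as Fam132b and read 3.16, 1.19 and 0.754 CPM in MYC livers, against 0.177 and 0.546 CPM in MYC controls. All 3 MYC livers were above both controls, but the change did not pass (2.19 ± 0.82, adjusted p = 0.0866), and without MYC liver 1 it was 1.38 (adjusted p = 0.245). In YAP livers Fam132b read 0.496 and 1.49 CPM at 2 weeks and 0.762, 0.86 and 0.834 CPM at 4 weeks, against 0.193 and 0.212 CPM in YAP controls (2.26 ± 0.98 and 1.97 ± 0.93, adjusted p = 0.105 and 0.123). By total-count scaling it passed in all 3 comparisons (2.83, 2.69 and 2.51, adjusted p = 0.0413, 0.0321 and 0.0493). These changes rest on few reads, 2 in each YAP control and 2 and 7 in MYC controls. The highest erythroferrone level was in MYC liver 1, which had the highest Hamp of the 3 MYC livers but not of the series. Epo did not pass the filter on low counts.

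Slc40a1, ferroportin, the cellular exit for iron, did not pass in any comparison on the TMM scale with all livers. It read 193 and 138 CPM in 2-week YAP livers and 153, 81.4 and 62.2 CPM in 4-week YAP livers, against 118 and 89.9 CPM in YAP controls. The 2-week livers were above both controls and the 4-week livers spread around them (0.67 ± 0.35, adjusted p = 0.175, and -0.07 ± 0.32, adjusted p = 0.885). By total-count scaling Slc40a1 rose at 2 weeks (1.18, adjusted p = 0.0117). The 4-week sign turned in 5 of 13 other settings, with total-count scaling giving 0.62. MYC livers read 192, 224 and 218 CPM, all above MYC controls at 158 and 160 CPM, without passing (0.41 ± 0.32, adjusted p = 0.41). Ferroportin is abundant in Kupffer cells, and a list of Kupffer markers that includes it summed to 2930 and 2210 CPM at 2 weeks, 1840, 771 and 620 CPM at 4 weeks and 562 and 532 CPM in YAP controls. In the YAP model, Slc40a1 and the Kupffer sum were both highest in 2-week YAP liver 1. Among 4-week livers, both were highest in liver 1. Elsewhere the orders differed. The Kupffer sum was higher in 2-week liver 2 than in 4-week liver 1 (2210 against 1840 CPM), but Slc40a1 was lower (138 against 153 CPM). The other 4-week livers had Kupffer sums above both YAP controls (771 and 620 against 562 and 532 CPM). Their Slc40a1 was below both controls (81.4 and 62.2 against 118 and 89.9 CPM). In that list 8 of 15 genes rose at 2 weeks, 5 at 4 weeks and 5 in MYC livers, where it summed to 974 to 1270 CPM against 538 and 555 CPM in MYC controls. By total-count scaling 14, 8 and 7 of the 15 rose. The part of Kupffer cells in the Slc40a1 level was not tested.

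Both ferritin subunits, which form the shell that stores iron, were lower in YAP livers. Fth1, the heavy chain, read 666 and 587 CPM in 2-week YAP livers and 641, 655 and 607 CPM in 4-week YAP livers, against 979 and 1100 CPM in YAP controls. Ftl1, the light chain, read 388 and 207 CPM at 2 weeks and 200, 203 and 182 CPM at 4 weeks, against 538 and 761 CPM in YAP controls. No induced liver reached a control for either subunit. Fth1 fell by 0.73 ± 0.22 at 2 weeks (SE, adjusted p = 0.0322) and by 0.71 ± 0.20 at 4 weeks (adjusted p = 0.0193), and Ftl1 fell by 1.12 ± 0.38 (adjusted p = 0.0446) and by 1.74 ± 0.34 (adjusted p = 0.00287). Total-count scaling ended the 2-week calls (Fth1 -0.20, Ftl1 -0.63) and left Fth1 at 0.03 at 4 weeks, so the fall of Fth1 is relative to the typical gene. The 4-week fall of Ftl1 passed in all 13 other settings tried, at -1.00 by total counts. Leaving out any 1 of the 4 livers ended the 2-week call of Fth1 (adjusted p = 0.0756 to 0.167), and leaving out either control or 2-week liver 2 ended that of Ftl1 (adjusted p = 0.0696, 0.224 and 0.275). At 4 weeks the call of Fth1 was lost without either control (adjusted p = 0.0635 and 0.127) or without 4-week liver 3 (adjusted p = 0.0601). Of the 50-base stretches of Ftl1, 90.6% also occurred in the transcripts of 17 other genes, led by Ftl1-ps1, so its level is uncertain.

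Neither ferritin gene passed in MYC livers. Fth1 read 846, 673 and 590 CPM in MYC livers, against 889 and 816 CPM in MYC controls. Ftl1 read 398, 209 and 188 CPM in MYC livers, against 451 and 473 CPM in MYC controls. The log2 fold change was -0.28 ± 0.20 for Fth1 (SE, adjusted p = 0.378) and -0.80 ± 0.33 for Ftl1 (adjusted p = 0.12), and MYC liver 1 was again the one nearest to the controls. Without it Ftl1 fell by 1.21 (adjusted p = 0.0114).

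**Figure D5:**
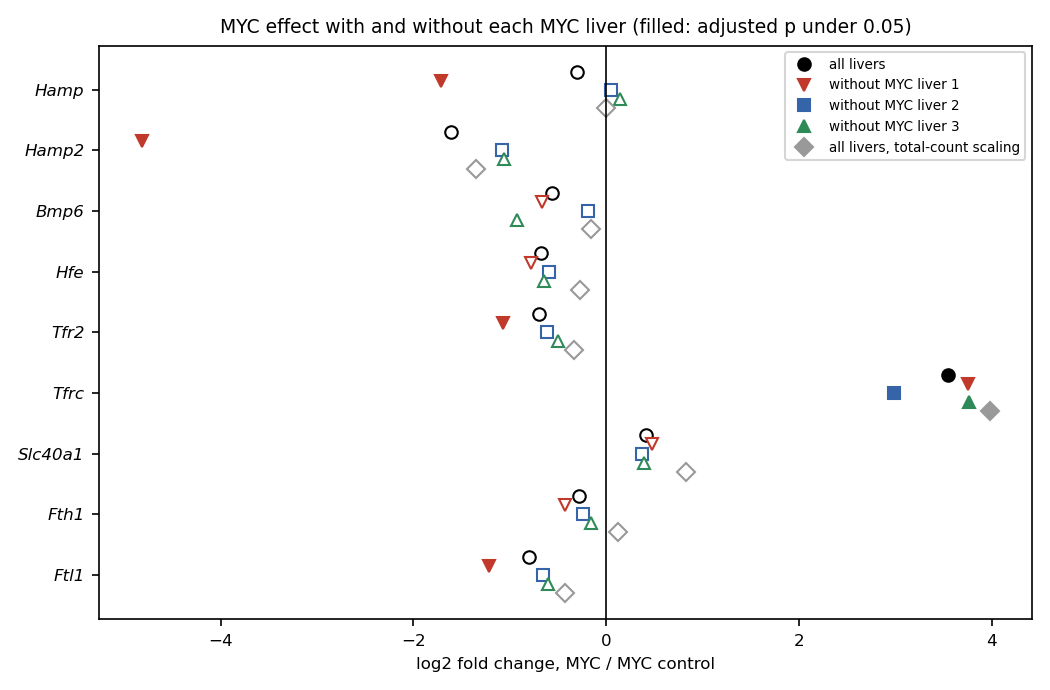
Log2 fold change of MYC livers over MYC controls for each iron gene with all livers, without each MYC liver and with total-count scaling; filled points passed an adjusted p of 0.05. Tfrc passed in all 5 fits, and without MYC liver 1 Hamp (-1.71), Hamp2 (-4.82), Tfr2 (-1.07) and Ftl1 (-1.21) passed as well.

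Without MYC liver 1, 5 members were called in MYC livers, against 1 with it. Calls over all genes also increased, to 4192 of 17845 (2033 higher, 2159 lower) from 3291 of 17964 (1754 higher, 1537 lower). The added calls among members were Hamp, Hamp2, Tfr2 and Ftl1, all lower in MYC livers 2 and 3 than in MYC controls. Liver 1 also had the largest library of the series, 17690798 counts, and 20.8% of its counts were mitochondrial, against 15.1% and 15.3% in the other MYC livers and 15% and 15.8% in MYC controls. The part of depth and of mitochondrial content in its levels was not tested.

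Other genes of iron transport moved in both directions. Of 18 transport genes tested, the members Tfrc, Tfr2 and Slc40a1 included, 2 rose and 4 fell at 2 weeks, 4 rose and 4 fell at 4 weeks and 5 rose and 4 fell in MYC livers. Over all genes, 27.8%, 33.8% and 18.3% were called in either direction in these comparisons. The medians of the 18 were 0.05, -0.12 and -0.23, against 0.10, 0.18 and 0.02 for all genes. By total-count scaling 6 rose and 2 fell, 7 rose and 2 fell, and 5 rose and 2 fell. Steap2, a metalloreductase, rose in all 3 comparisons: it read 101 and 179 CPM at 2 weeks and 144, 156 and 189 CPM at 4 weeks, against 15.7 and 17.3 CPM in YAP controls, and 52.3, 66.7 and 115 CPM in MYC livers, against 8.66 and 13.4 CPM in MYC controls. Scara5, a receptor that takes up ferritin, fell in all 3, with log2 fold changes of -6.17 ± 0.64, -8.40 ± 0.63 and -4.99 ± 0.56 (SE, adjusted p = 0.000137, 2.62e-05 and 0.000493). It read 0.567 CPM or less in every YAP-induced and MYC liver, against 27.6 and 44.0 CPM in YAP controls and 4.42 and 11.9 CPM in MYC controls. Slc11a1, a phagosomal metal transporter of macrophages, rose in all 3 as well. Steap3, the endosomal ferrireductase that serves the transferrin cycle of erythroid cells, passed in MYC livers (1.48 ± 0.33, adjusted p = 0.0131), where it read 42.5, 75.5 and 75.3 CPM against 24.3 and 22 CPM in MYC controls. The test of the difference from the 4-week YAP effect did not pass for Steap3 (1.26 ± 0.45, adjusted p = 0.117). Slc11a2, the endosomal importer DMT1, fell at both YAP times (-1.55 ± 0.32 and -1.04 ± 0.28, adjusted p = 0.00485 and 0.0152), the 4-week call being lost by total-count scaling (-0.28, adjusted p = 0.47). Trf, transferrin, did not pass on the TMM scale, but rose at both YAP times by total-count scaling (1.25 and 1.10, adjusted p = 0.0137 and 0.0131). It read 199, 175 and 133 CPM in MYC livers, against 316 and 303 CPM in MYC controls.

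Among sensing, storage and cluster genes, more fell than rose in YAP livers on the TMM scale. Of 8 sensing and storage genes, ferritins included, 1 rose and 3 fell at 2 weeks, 1 rose and 5 fell at 4 weeks and 2 fell in MYC livers, with medians of -0.34, -0.72 and -0.13. Ireb2, iron-regulatory protein 2, fell in all 3: it read 67.0 and 65.1 CPM at 2 weeks and 69.0, 71.6 and 53.7 CPM at 4 weeks, against 146 and 117 CPM in YAP controls, and 76.2, 74.9 and 84.2 CPM in MYC livers, against 134 and 129 CPM in MYC controls. Its log2 fold changes were -0.99 ± 0.18, -1.02 ± 0.16 and -0.74 ± 0.16 (SE, adjusted p = 0.00243, 0.000895 and 0.01). By total-count scaling they were -0.46, -0.29 and -0.32 and none passed, and of the 8 genes 2 rose and none fell at 2 weeks, 2 rose and 1 fell at 4 weeks and 2 rose in MYC livers. Of 14 iron-sulfur cluster genes 7 fell at 2 weeks and 8 at 4 weeks, with medians of -0.70 at each time. By total-count scaling 2 fell at each time and 1 rose at 4 weeks. Glrx5, a mitochondrial glutaredoxin of cluster transfer, fell by 1.26 ± 0.26 and 1.57 ± 0.23 (adjusted p = 0.00468 and 0.000606). In MYC livers the median of the 14 was -0.12, and none of them passed (1 rose by total-count scaling).

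Several heme synthesis genes fell in YAP livers. Of 9 such genes 4 fell at 2 weeks and 5 at 4 weeks, with medians of -1.04 and -1.08, and by total-count scaling 3 and 2 fell. Alas2, the erythroid first enzyme, read 4.46 and 11.2 CPM at 2 weeks and 9.02, 12.3 and 7.62 CPM at 4 weeks, against 61.8 and 55.8 CPM in YAP controls (-2.90 ± 0.69 and -2.61 ± 0.58, adjusted p = 0.013 and 0.00856). Cpox, coproporphyrinogen oxidase, fell by 1.36 ± 0.20 and 1.42 ± 0.18 (adjusted p = 0.000908 and 0.000296). In MYC livers the median of the 9 was 0.27, against 0.02 for all genes. The difference between the MYC and the 4-week YAP effect passed for 4 of the 9, all higher in MYC. Of 10 heme recycling genes 2 fell at 2 weeks, 5 at 4 weeks and 1 in MYC livers, with medians of -0.45, -0.80 and 0.07, and by total-count scaling 2, 2 and 1 fell and 1, 1 and 2 rose. Hpx, hemopexin, which carries free heme, read 1920 and 1630 CPM at 2 weeks and 968, 2600 and 1950 CPM at 4 weeks, against 6400 and 8580 CPM in YAP controls (-2.08 ± 0.46 and -2.03 ± 0.40, adjusted p = 0.00715 and 0.00331).

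No member passed between 4 and 2 weeks of YAP by edgeR's test or by DESeq2, where 0.0612% of all genes were called, 11 in number and all lower at 4 weeks. Among the members, the smallest p-values in edgeR's test were those of Hfe (-0.95 ± 0.30, adjusted p = 0.573) and Slc40a1 (-0.74 ± 0.31, adjusted p = 0.694). Both falls were larger without 4-week YAP liver 1, a fit in which 501 of 17848 genes were called. There Hfe fell by 1.39 (adjusted p = 0.00841) and Slc40a1 by 1.2 (adjusted p = 0.0141) between the times. In 4-week YAP liver 1 Hamp, Hamp2, Hfe and Slc40a1 stood nearest to the 2-week livers. Its Kupffer sum of 1840 CPM was likewise nearest to the 2-week livers at 2930 and 2210 CPM.

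Between MYC and 4 weeks of YAP, the effect differed for 2 of the 9 members, where 7.48% of all genes did (3.15% higher, 4.33% lower). Bmp6 differed by -4.21 ± 0.76 on the log2 scale, MYC effect minus YAP effect (SE, adjusted p = 0.00975), and Tfrc by 3.04 ± 0.65 (adjusted p = 0.0218). Each rested on its controls: the Bmp6 difference was lost without MYC control 2 (adjusted p = 0.059), and the Tfrc difference without YAP control 2 (adjusted p = 0.0917), MYC control 1 (adjusted p = 0.105) or MYC control 2 (adjusted p = 0.0985), by total-count scaling and without a filter on low counts. For Hamp the difference of -1.83 ± 1.11 did not pass (adjusted p = 0.348), nor did that for Hamp2 of -4.32 ± 1.88 (adjusted p = 0.196). Without MYC liver 1 both passed, at -3.24 (adjusted p = 0.0191) and -7.53 (adjusted p = 0.00218). For Hfe, Tfr2, Slc40a1, Fth1 and Ftl1 the differences ranged from -0.06 to 0.94 and none passed. The models also differ in age and in the time since induction, which cannot be told apart from the transgene here. By Xist and Ddx3y the 4-week YAP livers were female and the YAP controls male, whereas all MYC livers and MYC controls were male. Sex is therefore part of the YAP side of each difference and cannot be told apart from it.

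Genes most like Hamp and Tfrc across the 12 livers were taken as the 5 with the highest Pearson r of log2 CPM among 8817 genes with a mean of at least 10 CPM, as a description. The livers fall into the 5 groups, so these values reflect the group pattern as well as the spread within groups. The genes were picked by their levels in these same livers. A pattern shared with Hamp or Tfrc therefore follows from the choice, and their tests give no separate evidence for it. For Hamp they were Kng2 (r = 0.982), Slc25a48 (r = 0.965), Vnn1 (r = 0.954), Atoh8 (r = 0.952) and Aifm2 (r = 0.946). Atoh8, a transcription factor of the BMP-SMAD list that is known to raise hepcidin, read 76.3 and 61.5 CPM at 2 weeks and 110, 38.6 and 63.8 CPM at 4 weeks, against 21.4 and 13.5 CPM in YAP controls. It read 16.7, 1.40 and 0.987 CPM in MYC livers, against 15.2 and 18.7 CPM in MYC controls. Like Hamp it was high in every induced YAP liver, high in MYC liver 1 against livers 2 and 3, and called in none of the 3 comparisons (adjusted p = 0.197, 0.154 and 0.351). Without MYC liver 1, Atoh8 fell by 3.83 in MYC livers (adjusted p = 0.00112), against a log2 fold change of -1.40 with it. Kng2, a kininogen, averaged 558 ± 74.6 CPM at 2 weeks and 399 ± 133 CPM at 4 weeks, against 215 ± 30.4 CPM in YAP controls (SD, n = 2, 3 and 2).

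For Tfrc the genes most alike were Tal1 (r = 0.978), Snrpg (r = 0.972), 2700029M09Rik (r = 0.972), Isg20 (r = 0.971) and Nup205 (r = 0.969). Tal1, a transcription factor of blood precursors, averaged 83.6 ± 50.9 CPM in MYC livers and 2.11 ± 0.106 CPM in MYC controls (SD, n = 3 and 2). It rose by 5.30 ± 0.63 on the log2 scale (SE, adjusted p = 0.000853) and was not on the erythroid list. A rise in MYC livers was built into its choice by likeness to Tfrc.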

How the data were processed

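RNA of 12 livers was analysed from the raw counts per gene that the authors deposited, 1 file per library. The submitters' processing notes list featureCounts 1.6.3, HISAT2 2.1.0, DESeq2 1.20.0 and Trim Galore 0.4.1, with GRCm38. The annotation, the strand setting and the handling of multimapping reads are not given in the sources used here. Group means were fitted over all 12 libraries in edgeR 4.0.16 (R 4.3.3; filterByExpr, TMM, robust quasi-likelihood), with 7 residual degrees of freedom and a common biological coefficient of variation of 31.5%. Each SE is the size of the log2 fold change over the square root of F. Replicates differed beyond sampling noise (chi-square per degree of freedom 12.3 to 121 in 9 pairs). Loci and transcript lengths are from GENCODE vM21, alignments from Biopython 1.88. Fits were tested on simulated data. Alternatives were other scalings and filters, DESeq2 1.42.0, each model alone, a replicate block, no robust step and each library left out. Members and lists were chosen with earlier results of these data known. All 9 members were named, and other genes by smallest p or highest level within each list, plus a fixed set of symbols and the genes most like Hamp and Tfrc. Jak2 falls outside that rule and was named after its value was seen. Some genes of these lists are not reported here by name.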

Additional observations from a re-analysis of the deposited data

Results flagged for a closer look

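The effects of MYC and of 4 weeks of YAP on the same gene differed for Bmp6 and for Tfrc by a test of the difference itself, on the TMM scale with all livers. The Tfrc difference did not pass by total-count scaling or without a filter on low counts. With the replicate block the Bmp6 difference did not pass. The 4-week YAP livers were female and the YAP controls male by Xist and Ddx3y, so sex cannot be told apart from the YAP effect. For Bmp6 the MYC effect minus the YAP effect was -4.21 on the log2 scale: MYC livers read 0.631 to 2.32 CPM against 2.12 and 2.65 CPM in MYC controls, and 4-week YAP livers read 22 to 30.4 CPM against 0.849 and 3.19 CPM in YAP controls. For Tfrc the difference was 3.04: MYC livers read 187 to 460 CPM against 21.6 and 26.1 CPM in MYC controls, and 4-week YAP livers read 18.8 to 35.5 CPM against 14.2 and 26.6 CPM in YAP controls.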

How the results depend on the processing

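The calls of Bmp6 at both YAP times, of Tfr2 and Ftl1 at 4 weeks and of Tfrc in MYC livers held in every setting tried for them. By total-count scaling the log2 fold change turned to 0.09 for Hfe, 0.62 for Slc40a1 and 0.03 for Fth1 at 4 weeks of YAP, to 0.12 for Fth1 in MYC livers and to 0.01 for Tfr2 between 4 and 2 weeks. Leaving out single livers turned Slc40a1 at 4 weeks (range -0.53 to 0.17, 0.15 without YAP control 1, 0.05 and 0.17 without 4-week livers 2 and 3), Tfrc at 2 weeks (range -0.32 to 0.58, -0.32 without YAP control 1, -0.28 without 2-week liver 2), Fth1 between 4 and 2 weeks (range -0.07 to 0.13, -0.07 without 2-week liver 2), Hfe in the difference of effects (range -0.34 to 0.38, 0.38 without 4-week liver 1, 0.01 without MYC liver 2) and Hamp in MYC livers (range -1.71 to 0.14, 0.05 and 0.14 without MYC livers 2 and 3). Counts of genes called between 4 and 2 weeks were 3 (total counts), 42 (no filter), 0 (YAP model alone), 2 (replicate block) and 81 (DESeq2). DESeq2 called 2482 genes for the difference of effects. Members called were 1 for the difference of effects (total counts, no filter, replicate block) and 2 in MYC livers (no filter). With 1 library left out, genes called ranged over 2445 to 3671 at 2 weeks, 3324 to 6231 at 4 weeks, 792 to 4192 for MYC, 1 to 501 between the times and 338 to 1868 for the difference of effects. Members called ranged over 1 to 3, 3 to 5, 1 to 5, 0 to 2 and 0 to 4. Where 1 liver remained in a group, it was assumed to vary like the other groups. Replicate numbers do not pair the livers: same-numbered livers correlated at -0.03 to 0.08. With the replicate block 3539 genes were called at 4 weeks, 1514 for MYC and 308 for the difference of effects, Slc40a1 at 4 weeks stood at 0.12, and Fth1 at both times, Ftl1 at 2 weeks and the Bmp6 difference did not pass. The causes of these changes were not tested. Bmp6, with 8 reads in YAP control 2, Fam132b, with 2 reads in each YAP control, and erythroid genes without reads in controls are limited by depth.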
